A study of Mus musculus with 20 samples.

Results

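The difference between the effect of Aire in NOD mice and its effect in B6 mice was taken from Affymetrix arrays of sorted medullary thymic epithelial cells. For each probe set, the wild-type (WT) mean was subtracted from the knockout (KO) mean within a strain, and the B6 result was then subtracted from the NOD result, all on the log2 intensity scale. A positive value therefore means that KO mice stood higher relative to WT mice in NOD than in B6, either because the gene fell less or because it rose more, and 1 unit is a 2-fold change. The comparison used 12 of the 20 arrays of the series, from 3 B6 mice with the Aire locus labelled WT, 3 B6 mice labelled KO, 3 NOD mice labelled WT and 3 NOD mice labelled KO. The other 8 arrays came from 4 WT and 4 KO mice of the BALB strain and entered the estimate of spread, and BALB effects are given as a background that the difference does not use. All mice were males aged 3 to 4.5 weeks, each array held cells of 1 thymus, and the labels name no treatment. The cell sort kept CD45-negative cells that bound the epithelial antibody G8.8, had intermediate Ly51 and carried much MHC class II. The labels name no substrain, no Aire allele, no littermates and no number of backcrosses. All 45037 probe sets other than array controls were tested, and 18193 genes were represented by 1 probe set each.

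Aire is a transcriptional regulator of medullary epithelial cells that switches on many genes otherwise restricted to peripheral organs, so that developing T cells meet those antigens in the thymus and self-reactive cells can be removed or diverted. NOD mice develop autoimmune diabetes spontaneously, and B6 mice do not. Mice without Aire are known to develop autoimmunity whose target organs and severity depend on the strain, and it is more severe in NOD than in B6. The comparison asks which genes responded differently to loss of Aire in these 2 backgrounds.

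Array medians and mature medullary markers were close between groups, while other measures differed more. Array medians lay between 86.3 and 90.9 intensity units. The mean log2 intensity of 16 markers of mature medullary epithelium lay between 10.57 and 10.96 on the B6 arrays and between 10.56 and 10.91 on the NOD arrays. The mean of 9 immature medullary markers was 9.25 in B6 WT, 8.91 in B6 KO, 8.76 in NOD WT and 8.35 in NOD KO. That of 11 tuft cell markers was 7.65, 7.34, 6.99 and 6.98 in the same order. Dendritic cell and macrophage markers varied more among NOD mice, with a mean over 15 genes of 8.14 to 9.69 in WT and 7.96 to 9.17 in KO, against 8.38 to 8.61 and 7.89 to 8.27 in B6. The signal of the 3′ Gapdh control minus that of the 5′ control, a measure of how far RNA and its amplification reach, ran from 1.68 to 3.76 on the log2 scale in B6 and from 2.15 to 2.49 in NOD. B6 KO mice 2 and 3 were the most alike pair of arrays (r = 0.996 across probe sets). The Aire probe set itself read higher in KO than in WT mice by 0.80 in B6 and 0.72 in NOD, and neither passed the test. Its difference of effects was -0.08 ± 0.37 (SE, adjusted p = 1.0), and since the sources used here do not place the probe set relative to the deletion, it checks nothing about the genotype.

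A small set of genes responded to loss of Aire differently in NOD and B6. Khdc1a, Muc15, Dcpp3 and Spx fell in B6 and did not pass in NOD, Ctla4 rose in B6 and did not pass in NOD, Apoh and Prg3 fell in NOD and did not pass in B6, and Chga fell in B6 and rose in NOD. In the difference of effects, 79 of 45037 probe sets passed (limma, Benjamini-Hochberg adjusted p under 0.05), which is 0.175%, with 28 negative and 51 positive. An unadjusted p under 0.05 was found for 1941 probe sets, which is no more than the share of 0.05 that chance alone would give. By gene, 49 of 18193 passed, which is 0.269%, of which 17 were negative and 32 positive. The size of the difference among these 49 genes ran from 0.81 to 2.89 on the log2 scale, with a median of 1.74. The 49 genes lay on 15 chromosomes. Beside these counts, 1686 genes (9.27%) were lower and 580 (3.19%) higher in KO mice of B6, and 855 (4.7%) were lower and 342 (1.88%) higher in KO mice of NOD. The count of probe sets in the difference depended on the spread model and on single mice. It was 164 when same-numbered NOD and BALB mice were treated as pairs and 726 when B6 was paired too, and leaving out 1 mouse gave 38 to 98. It fell to 48 without B6 WT mouse 3, 40 and 38 without B6 KO mouse 2 or 3, 44 and 48 without NOD WT mouse 2 or 3, and 42 and 38 without NOD KO mouse 2 or 3. Without B6 WT mouse 2 and B6 KO mice 2 and 3, whose Gapdh 3′ minus 5′ values were the lowest (1.90, 1.68 and 1.84), 21 probe sets passed. That fit leaves 1 B6 KO mouse, which is assumed to vary like the other groups. Of the 49 genes only Chga, Dcpp3, Fabp6, Khdc1a, Muc15, Omt2a, Panct2, Spx and 4833422C13Rik remained past the threshold there, while all 49 kept their sign. The 49 genes were chosen for large differences on mostly the same arrays, so a kept sign is no separate support. With the Gapdh value as a covariate 48 of the 49 remained past the threshold. With same-numbered NOD and BALB mice paired, the NOD effect itself was called in 2974 probe sets instead of 1903, and among the 49 genes this changed the NOD call of Gatm and Chga only.

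**Figure D1:**
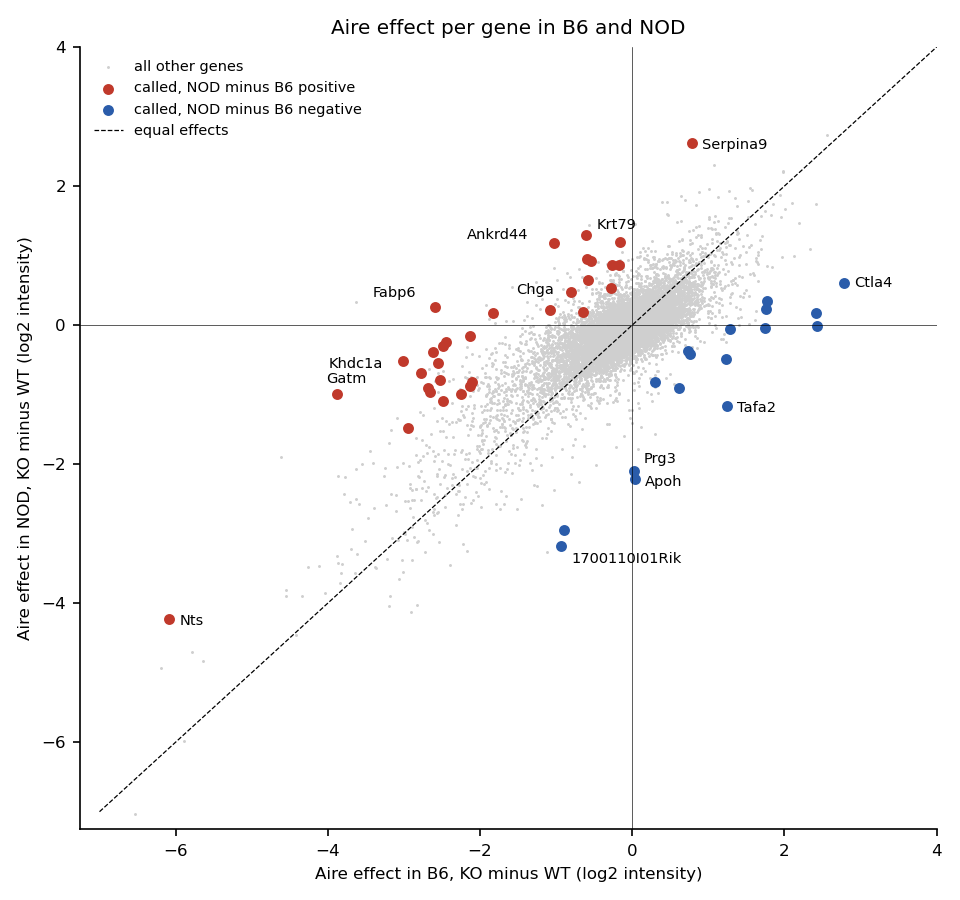
Aire effect (KO minus WT, log2 intensity) of each of 18193 genes in B6 on the horizontal axis and in NOD on the vertical axis; coloured points are the 49 genes whose difference of effects passed, and the dashed line marks equal effects. Most genes lie along the line, the 32 positive genes lie above it, and the 17 negative genes lie below it.

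The classes below follow from the 2 strain effects that make up the difference, so they describe the 49 genes and test nothing further. Among the 32 positive genes, 12 fell in B6 and did not pass in NOD, 9 fell in both strains but less in NOD, 6 rose in NOD and did not pass in B6, 4 fell in B6 and rose in NOD, and 1 rose in both. The 17 negative genes included 10 that rose in B6 and did not pass in NOD, 4 that fell in NOD and did not pass in B6, 2 that fell in both but more in NOD, and 1 that rose in B6 and fell in NOD. In 18 of the 49 genes the difference passed whichever of the 12 mice was left out. For every gene in the text the adjusted p comes from the limma fit across all probe sets. Whether the array probes of the called genes match the NOD sequence was not tested.

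Among genes that fell in B6 and did not pass in NOD, Khdc1a, a KH-domain gene of oocytes and early embryos, had log2 intensities of 9.33, 10.44 and 10.06 in B6 WT mice and 6.58, 7.18 and 7.04 in B6 KO mice. In NOD the WT mice read 5.73, 5.72 and 5.89 and the KO mice 5.14, 5.39 and 5.24. B6 WT mice thus stood above all other mice of both strains, while NOD mice were low with and without Aire, and NOD KO mice lay below NOD WT mice. The effect was -3.01 in B6 and -0.52 in NOD, and the difference was 2.49 ± 0.32 (SE, adjusted p = 0.00205). Dcpp3, a secreted protein of the salivary glands, also stood highest in B6 WT mice. It read 9.34, 8.77 and 9.73 in B6 WT and 7.22, 6.66 and 6.63 in B6 KO mice, against 7.19, 7.14 and 7.21 in NOD WT and 7.13, 6.89 and 6.78 in NOD KO mice. The NOD WT values lay at the level of the highest B6 KO mouse, and the difference of effects was 2.20 ± 0.28 (adjusted p = 0.00205). Dcpp1, of the same gene family, went the other way, with effects of -0.81 in B6 and -2.14 in NOD. Its difference of -1.33 ± 0.27 did not pass (adjusted p = 0.0642). Whether the Dcpp3 probe set also reads other members of this family was not tested. Spx, which encodes the peptide hormone spexin, read 7.35, 6.75 and 7.67 in B6 WT, 4.57, 4.94 and 4.61 in B6 KO, 5.21, 5.17 and 5.27 in NOD WT, and 4.72, 4.68 and 4.61 in NOD KO mice. Its NOD WT and KO values did not overlap, but the NOD fall of 0.54 on the log2 scale did not pass (adjusted p = 0.134). The difference was 2.0 ± 0.26 (adjusted p = 0.00228).

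Muc15, a membrane-bound mucin of epithelia, differed through the KO mice instead. Its values were 9.32, 9.75 and 9.18 in B6 WT, 6.44, 7.30 and 6.67 in B6 KO, 10.34, 10.29 and 10.36 in NOD WT, and 9.80, 10.07 and 9.95 in NOD KO mice. Every NOD KO mouse stood above every B6 WT mouse. The effect was -2.62 in B6 and -0.39 in NOD, a difference of 2.23 ± 0.31 (adjusted p = 0.00386).

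Fabp6, the ileal carrier of bile acids, had one of the largest differences. It read 10.20, 8.82 and 10.33 in B6 WT and 8.14, 6.55 and 6.88 in B6 KO mice. NOD mice read 10.77, 10.57 and 10.59 with Aire and 10.92, 11.03 and 10.73 without it. Fabp6 thus fell by 2.60 on the log2 scale in B6, did not pass in NOD (0.25, adjusted p = 0.876) and fell by 1.85 in BALB. The difference was 2.85 ± 0.51 (adjusted p = 0.0262), and B6 mice were scattered. With 1 mouse left out it passed only without B6 WT mouse 2 or without B6 KO mouse 1, the lowest B6 WT and the highest B6 KO mouse. Leaving out any of the other 10 mice, B6 or NOD, gave adjusted p up to 0.0958. Gatm, the enzyme of the first step of creatine synthesis, read 9.90, 9.78 and 9.55 in B6 WT and 5.93, 5.83 and 5.83 in B6 KO mice, but 7.08, 8.24 and 7.78 in NOD WT and 6.21, 6.76 and 7.17 in NOD KO mice. The groups did not overlap in B6 and overlapped in NOD, where every KO mouse lay below the WT mouse of its number. The NOD value of -0.99 did not pass (adjusted p = 0.225) but did with same-numbered mice paired (adjusted p = 0.0325). Its difference was the largest of the 49, at 2.89 ± 0.55 (adjusted p = 0.0381), and it passed only when NOD WT mouse 2 or NOD KO mouse 1 was left out, with adjusted p up to 0.121 without other mice.

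The remaining genes that fell in B6 and did not pass in NOD are described with fewer values. Elovl2, which elongates polyunsaturated fatty acids, had a B6 effect of -2.49 and a NOD effect of -0.30. Omt2a, an oocyte maturation gene (-2.77 and -0.69), Pramel27 of the PRAME family (-2.13 and -0.15) and Sycp2l, a synaptonemal complex gene of oocytes (-1.84 and 0.18), moved likewise. Omt2a values in KO mice of both strains, 3.01 to 3.21, lay among the lowest 5% of array values (log2 intensity under 3.77), so the size of its fall may be understated. NOD WT mice read 4.03, 3.74 and 3.64, close to that limit, so a fall in NOD had little room to show. Gstm6, a glutathione S-transferase, and the uncharacterised 2210409E12Rik completed the group, with B6 effects of -1.08 and -0.64. Their differences passed in 4, 3, 2, 2, 1 and 11 of the 12 fits that left out 1 mouse, in the order Elovl2, Omt2a, Pramel27, Sycp2l, Gstm6 and 2210409E12Rik.

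**Figure D2:**
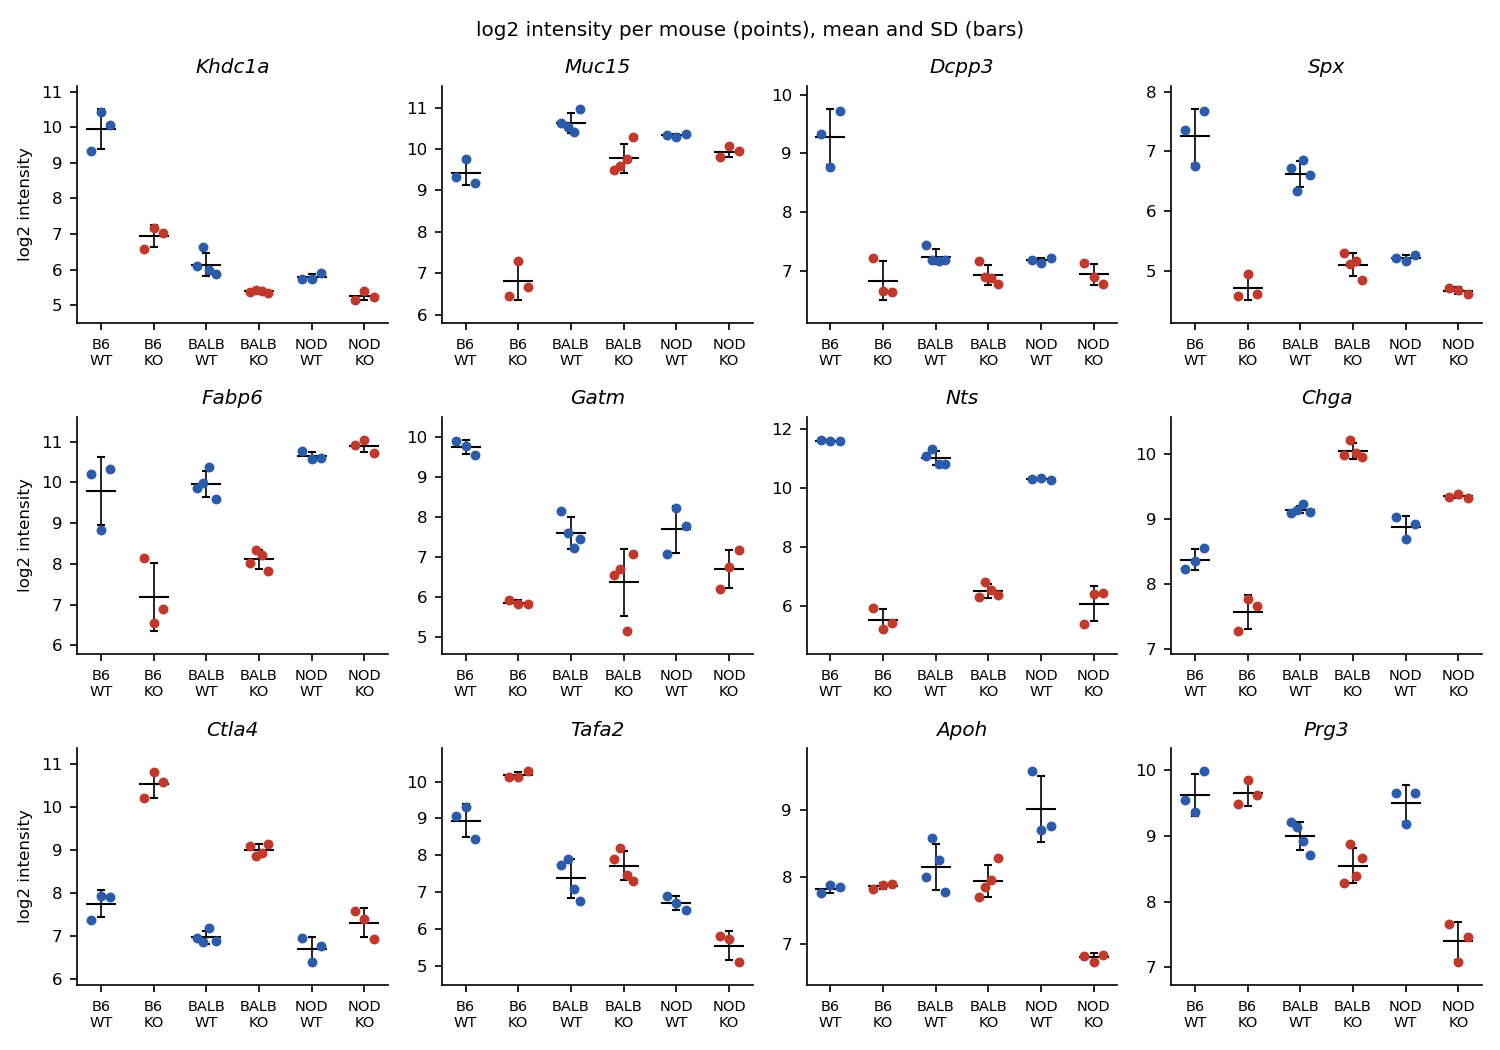
log2 intensity of 12 genes in each mouse (points; WT blue, KO red) with the mean and SD of each group (bars), on axes that differ between genes and do not start at 0. B6 WT mice stand apart in Khdc1a and Dcpp3, B6 KO mice in Muc15, and NOD KO mice in Apoh and Prg3.

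Another 9 genes fell in both strains, by less in NOD. Nts, the gut and brain peptide neurotensin, read 11.62, 11.59 and 11.61 in B6 WT and 5.94, 5.22 and 5.42 in B6 KO mice. In NOD it read 10.30, 10.35 and 10.27 in WT and 5.39, 6.41 and 6.44 in KO mice. It fell in both strains without overlap, by 6.08 on the log2 scale in B6 and by 4.23 in NOD. The difference of 1.85 ± 0.33 (adjusted p = 0.0247) passed in 3 of the 12 fits that left out 1 mouse (without B6 WT mouse 2, B6 KO mouse 1 or NOD KO mouse 1), with adjusted p up to 0.0924 in the others. Its strain gap among WT mice passed (-1.30, adjusted p = 0.0018) and that among KO mice did not (0.55, adjusted p = 0.153). Krt12, a keratin of corneal epithelium, fell by 2.53 in B6 and by 0.79 in NOD. Aldh1a2, which makes retinoic acid, had effects of -2.68 and -0.91, and Khdc1b, a neighbour and relative of Khdc1a, of -2.65 and -0.96. Lypd2, Gys2 (liver glycogen synthase), Vnn3 (a vanin) and Gstm5 fell too, with effects of -2.48, -2.24, -2.13 and -2.10 in B6 and -1.09, -0.99, -0.87 and -0.81 in NOD. Their differences passed in 7 (Krt12), 8 (Aldh1a2), 1 (Khdc1b), 5 (Lypd2), 1 (Gys2), 1 (Vnn3) and 3 (Gstm5) of the 12 fits that left out 1 mouse.

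The ninth gene was Enpep, a glutamyl aminopeptidase whose protein is the Ly51 antigen used in the sort. It read 8.88, 8.74 and 8.74 in B6 WT and 6.14, 5.58 and 5.79 in B6 KO mice, and 8.77, 8.85 and 8.58 in NOD WT and 7.49, 7.09 and 7.20 in NOD KO mice. WT mice of the 2 strains overlapped, and NOD KO mice all stood above B6 KO mice. The difference was 1.47 ± 0.28 (adjusted p = 0.0388) and passed in 1 of the 12 fits that left out 1 mouse. Since the cells were gated on this antigen, the values describe the sorted cells. Of 13 cortical epithelium markers, to which Enpep belongs, no other member passed in the difference, and their mean was 9.89 ± 0.14 (SD, n = 3) in B6 WT, 9.73 ± 0.18 in B6 KO, 9.64 ± 0.11 in NOD WT and 9.49 ± 0.18 in NOD KO mice.

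A group of 4 genes fell in B6 and rose in NOD. Chga encodes chromogranin A, a protein of neuroendocrine granules that is an autoantigen of T cells in NOD diabetes. It read 8.22, 8.35 and 8.55 in B6 WT and 7.27, 7.77 and 7.65 in B6 KO mice, against 9.02, 8.69 and 8.91 in NOD WT and 9.33, 9.38 and 9.32 in NOD KO mice. The groups did not overlap in either strain and moved in opposite directions, by -0.81 and 0.47. The NOD rise (adjusted p = 0.0416) did not pass with same-numbered mice paired (adjusted p = 0.0583). The difference was 1.28 ± 0.18 (adjusted p = 0.00411), and the BALB effect was 0.90, above that in NOD. Jag1, a Notch ligand, moved by -0.59 in B6 and 0.65 in NOD, with NOD KO mice at 9.94, 9.75 and 9.63 and all other B6 and NOD mice between 8.34 and 9.29. Its 2 other probe sets, both dimmer, read 0.09 in B6, and their differences of 0.26 and 0.36 did not pass. Serpinb1b, a serpin that inhibits neutrophil proteases, moved by -0.54 and 0.92. The differences of Jag1 and Serpinb1b, 1.24 ± 0.19 (adjusted p = 0.00749) and 1.46 ± 0.21 (adjusted p = 0.00536), passed whichever mouse was left out. Ankrd44, an ankyrin-repeat subunit of protein phosphatase 6 complexes, moved by -1.03 in B6 and 1.18 in NOD, a difference of 2.21 ± 0.39 (adjusted p = 0.0233) that passed in 4 of the 12 fits. Its 3 other probe sets, all dimmer, gave differences of 0.30, 0.18 and 0.52 that did not pass.

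Genes that rose without Aire in NOD and did not pass in B6 were led by Krt79, a keratin of hair follicle and sebaceous duct cells. NOD mice read 10.79, 10.68 and 10.49 with Aire and 12.07, 11.94 and 11.82 without it, while B6 mice read 10.92, 11.10 and 11.60 with Aire and 10.46, 10.85 and 10.51 without it. NOD KO mice were the highest of both strains, and the difference was 1.90 ± 0.34 (adjusted p = 0.0258; past in 4 of the 12 fits). Galnt10, which starts O-linked glycans, rose by 0.86 in NOD and its difference of 1.04 ± 0.17 (adjusted p = 0.0115) passed whichever mouse was left out. Amdhd1 of histidine breakdown (0.95 in NOD, -0.59 in B6), the noncoding RNA gene Mirg (1.20 and -0.16), Cachd1 (0.87 and -0.27) and the sterol transporter gene Abcg5 (0.54 and -0.27) made up the group. Another Mirg probe set, of about the same brightness, read 0.10 in NOD and 0.07 in B6, and its difference of 0.03 did not pass. The differences of these 4 genes passed in 5 (Amdhd1), 5 (Mirg), 2 (Cachd1) and 3 (Abcg5) of the 12 fits that left out 1 mouse. Serpina9, a serpin of germinal centre B cells, was the 1 gene that rose in both strains, by 0.78 in B6 and 2.62 in NOD (difference 1.84 ± 0.32, adjusted p = 0.0223; past in 5 of the 12 fits). The mean of 10 B cell markers lay between 8.0 and 8.78 in NOD WT and between 7.88 and 8.38 in NOD KO mice, against 7.88 to 8.04 and 7.55 to 7.72 in B6, and the part of B cells in the Serpina9 values was not tested. In these bulk samples more cells of a type and more RNA per cell cannot be told apart.

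The largest group of negative differences, 10 genes, rose without Aire in B6 and did not pass in NOD. Ctla4, an inhibitory receptor best known from T cells, read 7.38, 7.94 and 7.91 in B6 WT and 10.20, 10.82 and 10.58 in B6 KO mice. NOD mice read 6.94, 6.39 and 6.76 with Aire and 7.59, 7.40 and 6.93 without it. The B6 groups were far apart, and the NOD groups overlapped at 6.93 and 6.94, although every NOD KO mouse lay above the WT mouse of its number. Ctla4 rose by 2.79 in B6 and by 2.04 in BALB, while the NOD value was 0.61 (adjusted p = 0.107, and 0.0974 with same-numbered mice paired), and the difference was -2.17 ± 0.28 (adjusted p = 0.00205). No other gene among 22 costimulation and checkpoint genes passed in the difference. The mean of 14 thymocyte markers lay between 6.71 and 6.83 in B6 WT and between 6.53 and 6.64 in B6 KO mice, and the part of thymocytes in the Ctla4 values was not tested.

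The uncharacterised 4833422C13Rik had the most negative difference, -2.44 ± 0.26 (adjusted p = 0.00054). It read 3.49, 3.82 and 3.84 in B6 WT and 5.87, 6.25 and 6.31 in B6 KO mice, and every NOD mouse read between 2.92 and 3.27, in the lowest 5% of values. Its neighbour Acot12, an acetyl-CoA thioesterase of liver, rose by 1.77 in B6, with a difference of -1.43 ± 0.23 (adjusted p = 0.0127) that was lost only without NOD KO mouse 3 (adjusted p = 0.0556). Another probe set of Acot12 also passed, with -2.06. Nkx6-2, a homeobox factor of the nervous system, rose by 1.76 in B6 and read 0.23 in NOD (difference -1.52 ± 0.20, adjusted p = 0.00228). Dusp15, a phosphatase of the dual-specificity family, rose by 1.75 in B6 and 1.72 in BALB and read -0.04 in NOD (difference -1.79 ± 0.28, adjusted p = 0.0106). Another Dusp15 probe set read 1.14 in B6 and 0.73 in NOD, and its difference of -0.41 did not pass. The noncoding Panct2 followed the same form, with 1.29 in B6, 1.58 in BALB and -0.06 in NOD (difference -1.35 ± 0.22, adjusted p = 0.0118), as did 1700003P14Rik, with 2.41 in B6 and 0.18 in NOD. Nkx6-2, Dusp15, Panct2, 4833422C13Rik, 1700003P14Rik and Ctla4 passed whichever mouse was left out. P2rx3, an ATP-gated channel of sensory neurons, Rere, a nuclear corepressor, and Tent5c, a poly(A) polymerase of plasma cells, rose by 1.23, 0.77 and 0.73 in B6 and read -0.49, -0.41 and -0.37 in NOD, and passed in 4, 5 and 2 of the 12 fits.

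In contrast, 4 genes fell without Aire in NOD and did not pass in B6. Apoh, the plasma beta-2-glycoprotein I made by liver, read 9.59, 8.71 and 8.76 in NOD WT and 6.82, 6.73 and 6.84 in NOD KO mice. All B6 mice, with or without Aire, read between 7.76 and 7.90, below the NOD WT and above the NOD KO mice. The effect was 0.04 in B6, -2.22 in NOD and -0.20 in BALB, and the difference was -2.26 ± 0.30 (adjusted p = 0.00228). Another, dimmer Apoh probe set gave -0.31 and did not pass. Prg3, a granule proteoglycan of eosinophils, read 9.66, 9.18 and 9.66 in NOD WT and 7.66, 7.08 and 7.46 in NOD KO mice, against 9.55, 9.36 and 9.99 in B6 WT and 9.48, 9.85 and 9.62 in B6 KO mice. NOD KO mice alone were low, and the difference was -2.12 ± 0.29 (adjusted p = 0.00303). The differences of Apoh and Prg3 passed whichever mouse was left out, while those of St7 (-1.52) and the channel gene Pkd2l1 (-1.11) passed in 3 and 1 of the 12 fits.

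Tafa2, a secreted protein of neurons, was the gene that rose in B6 and fell in NOD. It read 9.07, 9.31 and 8.44 in B6 WT and 10.13, 10.12 and 10.29 in B6 KO mice, and 6.89, 6.71 and 6.52 in NOD WT and 5.80, 5.74 and 5.10 in NOD KO mice. The groups did not overlap within either strain, and NOD stood below B6 in both genotypes. The difference was -2.40 ± 0.41 (adjusted p = 0.0207; past in 6 of the 12 fits that left out 1 mouse). The uncharacterised 1700110I01Rik and 6330403K07Rik fell in both strains, with effects of -0.94 and -0.90 in B6 and -3.18 and -2.95 in NOD, and both differences passed whichever mouse was left out.

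**Figure D3:**
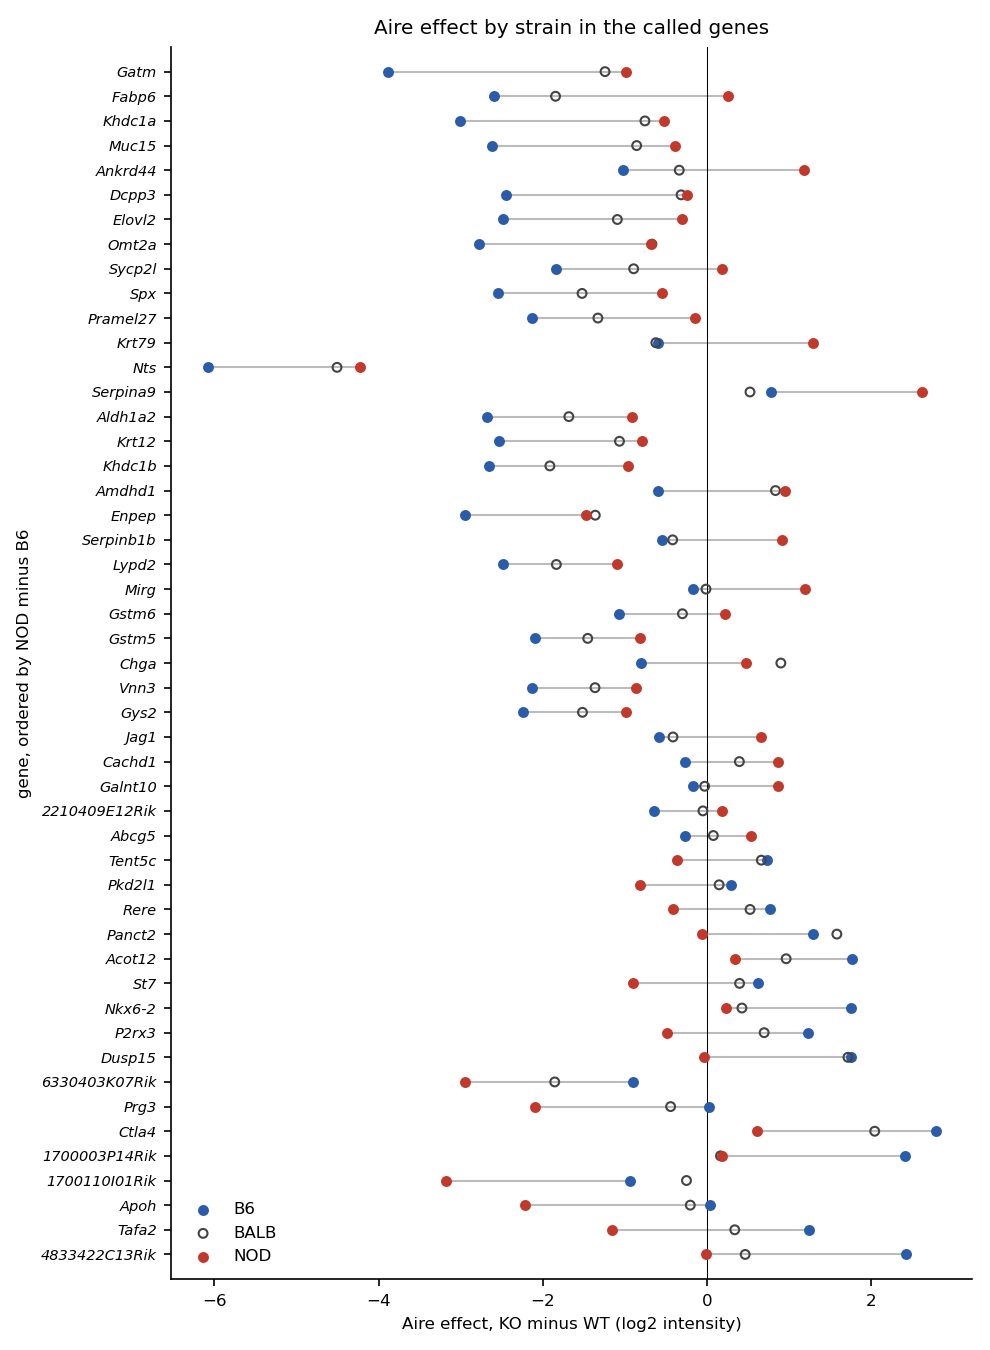
Aire effect (KO minus WT, log2 intensity) of the 49 called genes in B6 (blue), BALB (open) and NOD (red), ordered by the difference of effects, with a line joining B6 and NOD. In 27 of the 32 positive and 14 of the 17 negative genes the BALB point lies between the others.

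BALB gave another effect for each gene from mice that the difference does not use. The BALB effect lay between those of B6 and NOD in 27 of the 32 positive and in 14 of the 17 negative genes, beside 36.5% of all genes, but the 49 were chosen for a wide gap between B6 and NOD. It was nearer to NOD in 19 of the 32 positive genes, among them Khdc1a, Dcpp3, Muc15 and Gatm, and nearer to B6 in 13 of the 17 negative genes, among them Ctla4, Dusp15, Apoh and Prg3. Over all genes, 1360 (7.48%) were lower and 525 (2.89%) higher in KO mice of BALB.

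The difference of effects equals the NOD minus B6 gap among KO mice minus that among WT mice, so each gene can differ through either genotype. Over all genes, the WT gap passed in 1583 (8.7%) and the KO gap in 2190 (12%). The called genes were chosen on the difference between these gaps, which partly fixes the size and direction of the gaps. The counts below therefore describe the called genes and test nothing further. Among the 32 positive genes, 12 had only the WT gap past the threshold, 12 only the KO gap, and 8 both. Of the 20 WT gaps that passed, 15 were lower in NOD, and of the 20 KO gaps that passed, 18 were higher in NOD. In the 17 negative genes the KO gap passed in all 17 and was lower in NOD in each, whereas the WT gap passed in 7. Dcpp3, Spx, Omt2a and Pramel27 had KO gaps of 0.10, -0.04, -0.07 and 0.07 and WT gaps of -2.10, -2.04, -2.16 and -1.90, so for these genes the strain gap passed with Aire and did not pass without it. Prg3, Jag1, Enpep and Sycp2l had WT gaps of -0.13, 0.06, -0.05 and -0.01 and KO gaps of -2.25, 1.30, 1.42 and 2.0, the opposite arrangement. For Omt2a the KO mice of both strains lay among the lowest array values, which limits what its KO gap can show.

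**Figure D4:**
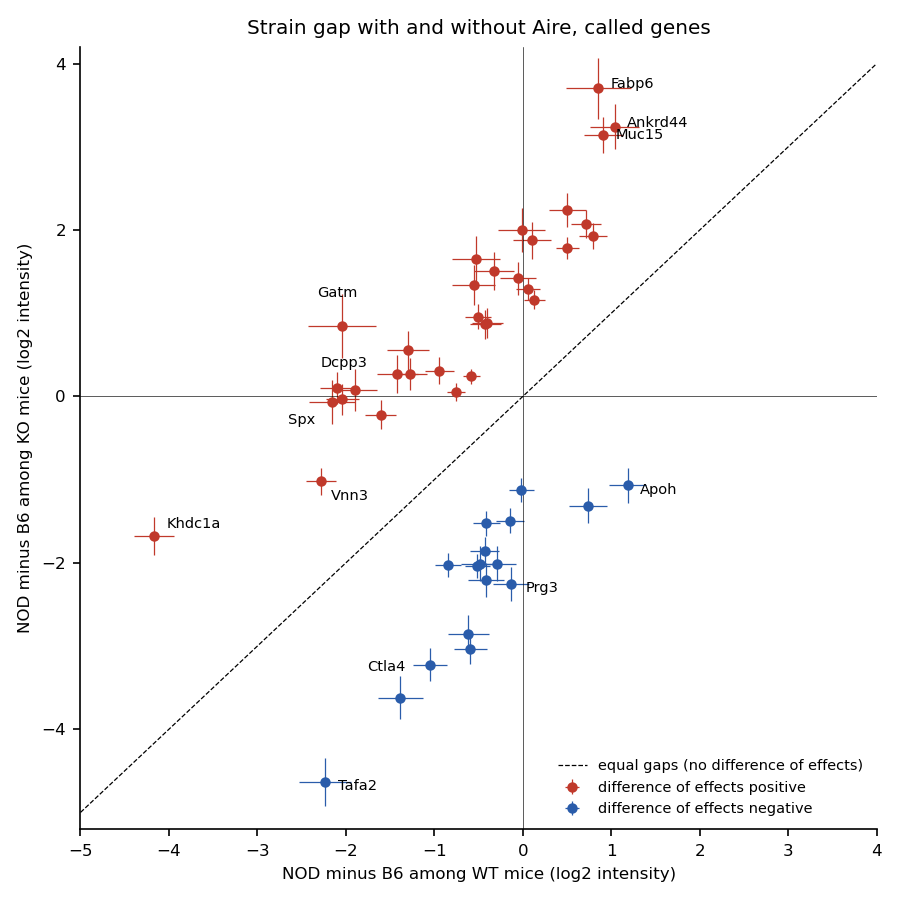
NOD minus B6 gap (log2 intensity, with SE bars) of the 49 called genes among WT mice on the horizontal axis and among KO mice on the vertical axis; the dashed line marks equal gaps. Dcpp3 and Spx lie near 0 on the vertical axis only, Prg3 near 0 on the horizontal axis only, and Fabp6, Muc15 and Ankrd44 at the top right with NOD higher in both genotypes.

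Some called genes were neighbours. In 5 pairs no measured gene lay between the members, namely Khdc1a and Khdc1b on chromosome 1, Prg3 and P2rx3 on chromosome 2, Spx and Gys2 on chromosome 6, and Sycp2l with Elovl2 and 4833422C13Rik with Acot12 on chromosome 13. Gstm5 and Gstm6 on chromosome 3 had 1 measured gene between them. Both members of each of these 6 pairs had differences of the same sign. Whether called genes were neighbours more often than other genes was not tested. Aire lies on chromosome 10, where 4 of 860 measured genes were called, beside 0.269% of all genes. None of the 100 measured genes nearest to Aire in chromosome order, 50 on each side, was called by limma. Of these, 3 had an unadjusted p under 0.05, beside 1039 of all 18193 genes.

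The 250 bases before the annotated start are shown for Fabp6 and Nts, whose effects were lower in B6 than in NOD, and for Prg3, which fell in NOD and did not pass in B6. They are RefSeq sequences of the reference build GRCm38.p6, from chr11:43601563-43601812 (minus strand), chr10:102490419-102490668 (minus strand) and chr2:84987965-84988214 (plus strand), and not sequences of the NOD mice. Capitals mark a match to the TATA box TATAAA (Fabp6, on the opposite strand as TTTATA) or to the AP-1 site TGANTCA (Nts), and Prg3 holds none of the motifs searched.
Fabp6: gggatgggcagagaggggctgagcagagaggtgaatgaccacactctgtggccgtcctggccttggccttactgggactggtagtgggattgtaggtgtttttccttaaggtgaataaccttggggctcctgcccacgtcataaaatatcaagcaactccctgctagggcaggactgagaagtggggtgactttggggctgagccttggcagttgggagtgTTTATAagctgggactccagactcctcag
Nts: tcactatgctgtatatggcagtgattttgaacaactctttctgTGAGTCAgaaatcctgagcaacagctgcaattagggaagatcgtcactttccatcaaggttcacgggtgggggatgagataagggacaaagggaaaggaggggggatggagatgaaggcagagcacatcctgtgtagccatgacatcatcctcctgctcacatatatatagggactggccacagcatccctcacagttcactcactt
Prg3: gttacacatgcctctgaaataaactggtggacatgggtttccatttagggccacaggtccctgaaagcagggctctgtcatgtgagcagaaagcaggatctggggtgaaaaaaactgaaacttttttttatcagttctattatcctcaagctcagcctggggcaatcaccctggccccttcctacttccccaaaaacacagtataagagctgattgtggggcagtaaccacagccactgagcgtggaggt

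A window was at hand for 40 of the 49 called genes and for 14452 of all measured genes. Read on both strands, TATAAA was in 6 of the 40 (15%) and in 10.5% of all, TGANTCA in 2 (5%) and 6.7%, and CCAAT in 16 (40%) and 39.4%. The E-box CACGTG and the cyclic AMP response element TGACGTCA were in none of the 40 windows, against 8.73% and 2.5% of all. These matches describe letters in the windows and are not binding sites.

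Beyond the called genes, the genes that fell most in BALB had a smaller median fall in NOD than in B6. To describe them without choosing on B6 or NOD mice, the 578 genes that were at least 2-fold lower and past the threshold in BALB KO mice were taken. Their median effect was -1.77 in B6, -1.33 in NOD and -1.50 in BALB, beside 0.01, 0.00 and 0.00 over all genes. The effect was less negative in NOD for 435 of the 578 (75.3%), beside 50.4% of all genes, and 15 of the 578 were called in the difference. Relative to the WT mean of the strain, the median over these genes was -1.75, -1.72 and -1.76 in the B6 KO mice and -1.40, -1.30 and -1.26 in the NOD KO mice, with no overlap, and between -0.15 and 0.08 in the WT mice of both strains. Of the 578 genes, 515 fell in B6 and 409 in NOD. Of the 96 genes at least 2-fold higher in BALB KO mice, the median was 1.22 in B6 and 1.01 in NOD, with NOD KO mice at 1.15, 1.06 and 0.82 and B6 KO mice at 1.15, 1.20 and 1.30, which meet at 1.15.

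The effects of the 2 strains were also set side by side over all genes. Across 18193 genes, which are not independent replicates, the B6 and NOD effects correlated with r = 0.80. A total of 428 genes were at least 2-fold lower and past the threshold in both strains, with median effects of -1.96 in B6 and -1.71 in NOD, and 3 of them were called in the difference. Adipoq, the adipocyte hormone adiponectin, fell by 1.74 in each strain, the matrix protein gene Ccn3 by 2.46 in B6 and 2.45 in NOD, Phf11d by 1.20 in each, and Arhgap24 by 1.05 in each. For these 4 genes the difference was closest to 0 among the 428.

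Gene lists by organ had few called members. Over all genes 9.27% fell in B6, 4.7% in NOD and 0.269% were called in the difference, and the counts of each list stand beside these shares. A positive difference was found in 50.4% of all genes and in 75.3% of the 578 genes that fell in BALB. The median difference of effects of a list is not the gap between its 2 strain medians. In the keratinocyte and epidermis list, 22 of 25 measured genes had a positive difference, and the median difference was 0.44. The median effect was -1.19 in B6 and -0.35 in NOD, 13 fell in B6 and 4 in NOD, and Krt79 was the called member. Sprr1b, a cornified envelope protein, had effects of -1.38 and 0.14 (difference 1.52 ± 0.31, adjusted p = 0.0642), and Klk6, an epidermal protease, -2.57 and -0.57 (2.0 ± 0.49, adjusted p = 0.17). Krt10, a keratin of differentiating epidermis, read -2.26 and -0.91 (1.35 ± 0.46, adjusted p = 0.616). None of these 3 passed, and they were singled out after their values were seen. The list's median over each mouse was -1.31, -1.04 and -0.98 in B6 KO and -0.55, -0.25 and -0.22 in NOD KO mice, without overlap.

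For the pancreas list, 27 genes were measured, 18 fell in B6 and 12 in NOD, and the medians were -1.29 and -0.72. The median difference was 0.26, 20 differences were positive, and none was called. Gcg, the glucagon precursor, had effects of -1.66 in B6 and 0.05 in NOD (difference 1.72 ± 0.38, adjusted p = 0.0929). Ins2, an insulin gene, fell by 1.57 in B6 and by 0.72 in NOD (0.85 ± 0.26, adjusted p = 0.432), and Iapp, islet amyloid polypeptide, had effects of -2.87 and -3.05. Of 16 islet autoantigens 8 had a positive difference, or 12 without the 3 B6 arrays of low Gapdh value, and Chga was called. Among 16 antigens described as Aire-dependent, 13 differences were positive, 12 fell in B6 and 10 in NOD, and the medians were -2.06 and -1.30, with none called. The median difference of this list was 0.73. Crh, the stress axis hormone, fell by 5.89 in B6 and by 5.98 in NOD, while Tff3, a trefoil peptide of gut, had effects of -3.26 and -2.17 (1.09 ± 0.33, adjusted p = 0.412).

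Other lists differed in size and direction. The intestine list had Fabp6 and Nts as called members, yet its medians were -1.78 in B6 and -1.76 in NOD, with 18 and 16 of 26 genes falling. In the liver list, 19 of 29 genes fell in B6 and 13 in NOD, with medians of -1.33 and -0.96, and Apoh was called in the other direction. Kallikreins had medians of -1.41 and -0.95, with 14 of 17 differences positive and none called. Tuft cell markers had 10 of 11 differences positive, medians of -0.34 and 0.11, and no member past the threshold in either strain. Of 28 interferon-stimulated genes 9 fell in each strain, with medians of -0.49 and -0.53. Retina genes leaned the other way, with 6 of 19 differences positive and medians of -0.08 and -0.37. Mature medullary epithelium markers stayed near 0, at 0.08 and 0.10 over 16 genes, and none passed in either strain. Gatm, on the list of metallothioneins and redox genes, was its called member among 23, and both medians of that list were -0.58. The median difference of effects was 0.05 for intestine, 0.22 for liver, 0.32 for kallikreins and 0.25 for tuft cell markers. It was -0.06 for interferon-stimulated genes, -0.13 for retina, -0.06 for mature medullary epithelium markers and 0.25 for metallothioneins and redox genes.

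**Figure D5:**
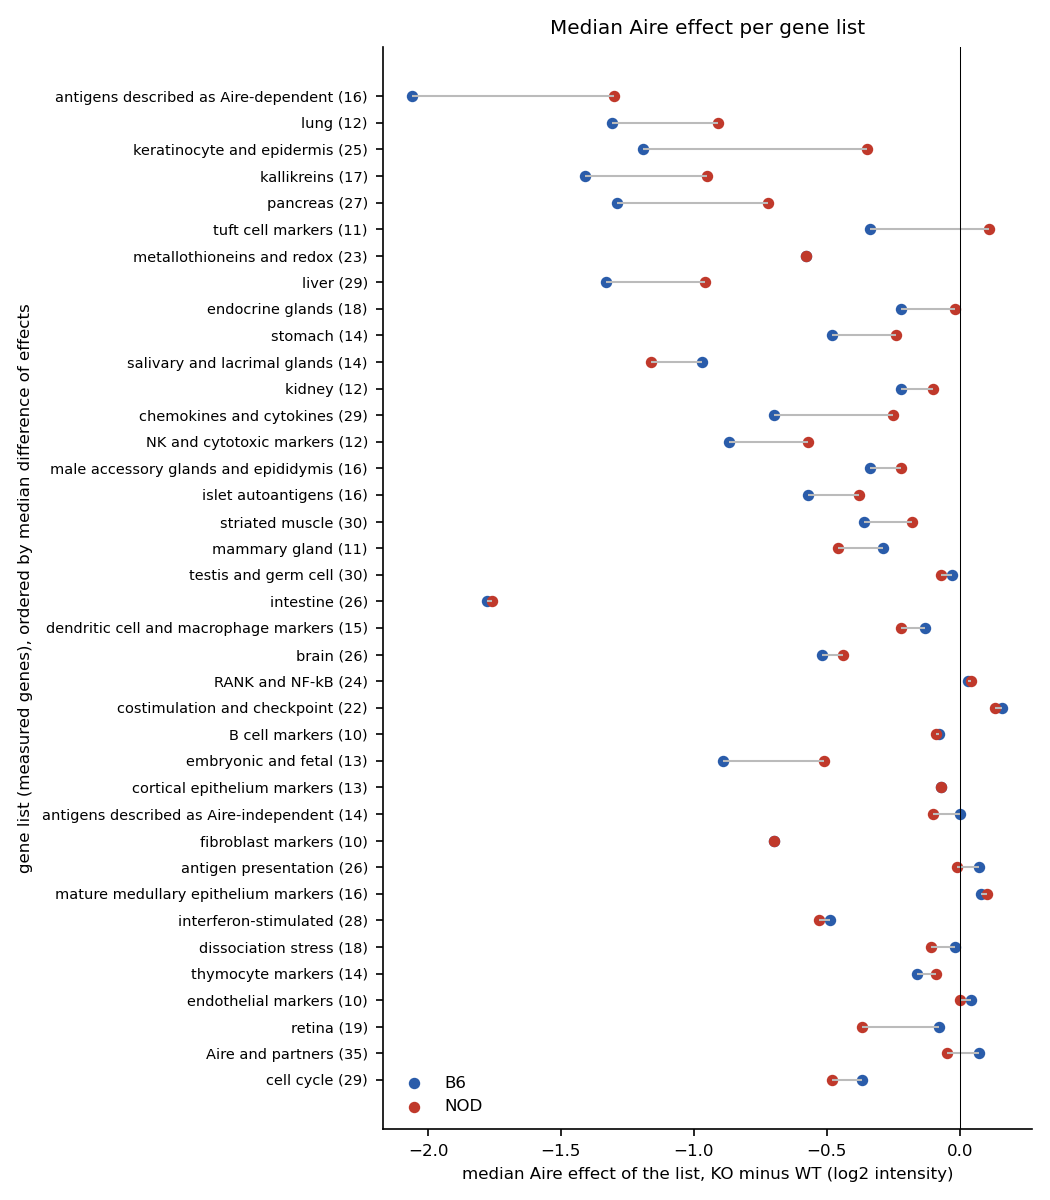
Median Aire effect (KO minus WT, log2 intensity) of gene lists with at least 10 measured genes in B6 (blue) and NOD (red), ordered by the median difference of effects, with the number of measured genes in brackets. The keratinocyte list lies at -1.19 in B6 and -0.35 in NOD, whereas the intestine list lies at -1.78 and -1.76.

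Probe sets of a gene did not always give the same call. Of the 49 called genes 14 had 21 other probe sets, all with the same sign, and 1 of them passed. Among those that did not pass were probe sets of Khdc1b (1.25), Tent5c (-1.25), Krt12 (1.05), P2rx3 (-0.60 and -0.51), Rere (-0.53 and -0.12), Galnt10 (0.76 and 0.31), Amdhd1 (0.50), Cachd1 (0.37) and Acot12 (-0.31). A further 16 called probe sets belonged to 15 genes whose brighter probe set was not called, and 15 of the 16 had the same sign as that probe set. These include Gabrp, a GABA receptor subunit (2.11), Nefl, the light neurofilament (2.04), the water channel Aqp4 (1.91), the cadherin Cdh8 (-1.97) and the zinc finger gene Zfp318 (-1.55). Tspan8, a tetraspanin, gave 1.29 on the called probe set and -1.01 on the brighter one, so its direction is not settled.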

How the data were processed

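Each deposited value is a linear intensity (6.55 to 18395) of 1 probe set on 1 array, which the authors made with RMA per the submitters' processing notes; no source used here gives the RMA version. Per the labels' protocols, total RNA was amplified in 2 rounds, which can favour 3′ ends. No detection calls were used. Of 45101 probe sets, 64 controls were left out, and log2 was taken without offset. The annotation gave 1 symbol for 34945 probe sets; a gene is its probe set with the highest mean.

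Group means of all 20 arrays were fitted with limma 3.58.1 in R 4.3.3 (lmFit, eBayes, 14 residual degrees of freedom), with Benjamini-Hochberg adjustment over all 45037 probe sets at 0.05. The median difference over probe sets was -0.019. The code was tested on simulated data. P-values rest on the spread between mice, and 3 or 4 mice per group limit precision.

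The members and gene lists were chosen with earlier results of these data known. Named are Aire, the 15 most negative and 15 most positive called genes, up to 6 with opposite effects each way, 6 each with the smallest KO or WT gap, called list members, called genes near Aire, and 4 large shared falls; the other 12 called genes, other probe sets and uncalled list members were named after their values were seen. Same-numbered mice correlated in NOD (r = 0.67, 0.31 and 0.61) and BALB (0.46 to 0.66) and count as pairs there; in B6 (0.78, 0.72 and -0.13) they do not. The reported fit is unpaired, and the fit with pairs in NOD and BALB is an alternative, given for genes whose NOD call it changed. In the difference it kept 46 of the 49 called genes past the threshold, and those lost are not named here. Alternatives covered scaling, filters, variance models, blocks, a Gapdh covariate and mice left out.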

Additional observations from a re-analysis of the deposited data

Results flagged for a closer look

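For 49 genes the Aire effect differed between NOD and B6 by a test of the difference itself (limma, Benjamini-Hochberg adjusted p under 0.05). The positive differences on the log2 scale, NOD minus B6, were those of Gatm (2.89), Fabp6 (2.85), Khdc1a (2.49), Muc15 (2.23), Ankrd44 (2.21), Dcpp3 (2.20), Elovl2 (2.19), Omt2a (2.09), Sycp2l (2.02), Spx (2.0), Pramel27 (1.98), Krt79 (1.90), Nts (1.85), Serpina9 (1.84), Aldh1a2 (1.77) and Krt12 (1.74). Smaller positive differences were those of Khdc1b (1.69), Amdhd1 (1.55), Enpep (1.47), Serpinb1b (1.46), Lypd2 (1.39), Mirg (1.36), Gstm6 (1.29), Gstm5 (1.29), Chga (1.28), Vnn3 (1.26), Gys2 (1.25), Jag1 (1.24), Cachd1 (1.14), Galnt10 (1.03), 2210409E12Rik (0.82) and Abcg5 (0.81). Negative differences were those of 4833422C13Rik (-2.44), Tafa2 (-2.40), Apoh (-2.25), 1700110I01Rik (-2.24), 1700003P14Rik (-2.23), Ctla4 (-2.17), Prg3 (-2.12), 6330403K07Rik (-2.05), Dusp15 (-1.79), P2rx3 (-1.72), Nkx6-2 (-1.52), St7 (-1.52), Acot12 (-1.43), Panct2 (-1.35), Rere (-1.18), Pkd2l1 (-1.11) and Tent5c (-1.10).

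In 7 of 108 BALB groups of 4 mice, for the genes named, 1 mouse stood far from the others by Dixon's test, which chance gives in about 1 group in 20. Aire read 9.31 in BALB WT mouse 4 against 10.48 to 10.71 in the other 3, and Krt12 read 7.86 in the same mouse against 8.28 to 8.32. BALB WT mouse 1 was high in Dcpp3 (7.44 against 7.16 to 7.19) and Omt2a (4.70 against 3.55 to 3.74) and low in Jag1 (8.89 against 9.07 to 9.10). Dusp15 read 7.81 in BALB KO mouse 4 against 8.13 to 8.18, and Krt12 read 7.61 in BALB KO mouse 2 against 6.91 to 7.0. These mice enter the spread of the fit and not the difference between NOD and B6.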

How the results depend on the processing

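All 49 called genes kept the sign of their difference in every alternative that held them, and 6 of them (Chga, Dcpp3, Khdc1a, Muc15, Spx and 4833422C13Rik) also stayed past the threshold in each. The 49 were chosen for large differences on these arrays, and some alternatives, such as the replicate block, leave the difference itself unchanged. The kept signs are therefore no separate support. The count of 79 probe sets became 2356 with array weights (46.8% positive, against 64.6%), 209 with the run of sample codes as a term, 116 with the Gapdh covariate, 37 with B6 KO mice 2 and 3 averaged, 21 without B6 WT mouse 2 and B6 KO mice 2 and 3, and 26 at an adjusted p of 0.01. The labels do not state what the runs of sample codes mean. Mice 2 and 3 of both B6 groups formed 1 run, and mice 2 and 3 of both NOD groups another. Strain and run are thus largely confounded, and B6 WT mouse 1 had no code and was left out. Leaving out 1 mouse gave 38 to 98. Genes taken as the mean of their probe sets gave 78 calls, 46 of them shared with the 49. The replicate block on all strains gave 726, 9695, 5112 and 7787 calls for the difference and the B6, NOD and BALB effects, and the block in NOD and BALB only, chosen after seeing the data, gave 164, 2974 and 4647 for the difference, NOD and BALB; the former kept all 49 genes past the threshold and the latter 46. The B6 effect went from 3880 to 1245 without those 3 B6 arrays, which leaves 1 B6 KO mouse assumed to vary like the other groups, and to 2524 with 2 averaged. The cause was not tested. The other counts stayed within 1.5 times, among them 75 with the 12 arrays alone (50 shared), 74 with median centring, 75 with quantile normalization, 73 with log2(value + 32) and 77 with dim probe sets filtered. With the 12 arrays alone, where BALB mice do not enter the spread, only 31 of the 49 called genes remained past the threshold.

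The medians of the 578 genes, recomputed as alternatives chosen after seeing the data, were -1.80 in B6 and -1.33 in NOD without those 3 B6 arrays and -1.35 and -1.0 with log2(value + 32). Without those arrays the number of positive differences went from 8 to 12 of 16 islet autoantigens, from 12 to 16 of 28 interferon-stimulated genes and from 6 to 12 of 16 mature medullary epithelium markers, and stayed at 22 of 25 in the keratinocyte and 20 of 27 in the pancreas list. Over all 18193 genes that number went from 9166 to 9834, so the list counts moved beside a general shift. Values near the bottom of the scale limit what Omt2a, 4833422C13Rik and 1700003P14Rik can show.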
